A study of Mus musculus with 39 samples.

Results

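The loci of 4 genes of the endocytic machinery of extra-embryonic endoderm, Dab2, Lrp2, Cubn and Amn, were examined in CUT&Tag peak lists of mouse naive extra-embryonic endoderm (nEnd) cultures. All listed peaks within the annotated gene body and 20 kb on either side of it were taken, on GRCm38 with GENCODE annotation. This gave 121 peaks at 4 of 21884 protein-coding genes, out of 432096 peaks in 36 lists. Lrp2 (megalin) and cubilin, the product of Cubn, are large multiligand receptors of the apical surface of visceral endoderm, kidney and yolk sac. Amnionless, the product of Amn, is the membrane anchor of cubilin, and both together form the cubam receptor. Dab2 is a clathrin adaptor that binds the cytoplasmic tails of such receptors and is a long-used marker of extra-embryonic endoderm. Maternal proteins, vitamins and lipoproteins enter the visceral endoderm through this machinery.

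In CUT&Tag an antibody directs a transposase to chromatin that carries a histone mark. The cells were untreated nEnd of the OCT4-mCherry reporter line, which per the methods was differentiated from embryonic stem cells in medium with LIF, CHIR99021 and Activin A, sorted for PDGFRA and expanded as nEnd on mouse embryonic fibroblast feeders, and they were sorted by FACS on the reporter and on PDGFRA-APC into Oct4+, double positive (DP) and Pdgfra+ cells. For each population, H3K4me1 (a mark of enhancers and flanks of promoters), H3K27ac (active promoters and enhancers), H3K27me3 (Polycomb repression) and H3K9me3 (heterochromatin) were profiled in 3 replicates. All groups come from this 1 line, and the study describes 3 biological replicates, while the labels do not tie them to separate cultures, so p-values measure the spread between these samples, which may be technical.

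Lists ran from 1074 peaks (H3K4me1, Pdgfra+ replicate 2) to 65131 (H3K27ac, Oct4+ replicate 2), sequencing depth is unknown, and a region with no listed peak can still carry the mark. H3K27ac at epiblast markers went with the labels, and endoderm markers were listed in part of the Oct4+ libraries too. All 6 epiblast markers tested (such as Nanog and Esrrb) had a peak in each Oct4+ library, against 0 to 3 in DP and 0 to 2 in Pdgfra+ libraries, and of 8 endoderm markers 7 to 8 had one in DP, 8 in Pdgfra+ and 0 to 7 in Oct4+ libraries. Pdgfra itself had a H3K27ac peak in 0 Oct4+, 2 DP and 3 Pdgfra+ libraries. Of 6 trophectoderm markers, 0 to 5, 3 to 4 and 3 to 4 had a H3K27ac peak in Oct4+, DP and Pdgfra+ libraries. Of 6 fibroblast markers, 1 to 5 had one in Oct4+, 0 to 1 in DP and 0 in Pdgfra+ libraries, with summed coverage of 2.65 to 34.4, 0 to 4.69 and 0%, and the part of feeder chromatin in the results was not tested. Oct4+ replicate 3 of H3K27ac had 8574 peaks and none of them lay in any of the 4 windows.

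The places on which the results turn are shown first, 5′ to 3′ on the strand of the gene named, with capitals marking matches on either strand to the motifs searched. For GATA factors the letters AGATAA were searched, and also the variant TGATAA. For FOXA factors they were TGTTTAC, with the further variant TGTTTGC. A SOX motif was written as ACAATG, an OCT motif was written as ATGCAAA, and for HNF1 the letters searched were GTTAAT. The motif of the SP and KLF factors was GGGCGG, and no motif of the list overlapped another in the sequences shown. Genome sequence was RefSeq GRCm38.p6. The first is the summit of the region downstream of Dab2 listed in every DP and Pdgfra+ library (chr15:6444447-6444746, + strand, intergenic), chosen after its values were seen. The second is the summit of the intronic Dab2 region shared by H3K27ac and H3K4me1 in DP (chr15:6375219-6375518, + strand). The third and the fourth are the intronic summits of Cubn (chr2:13372409-13372708, − strand) and Lrp2 (chr2:69447021-69447320, − strand), which held H3K27ac away from annotated starts. The fifth lies upstream of Amn, where H3K4me1 was listed in all 3 populations (chr12:111267814-111268113, + strand, intergenic), and was also chosen after its values were seen.
Dab2 downstream: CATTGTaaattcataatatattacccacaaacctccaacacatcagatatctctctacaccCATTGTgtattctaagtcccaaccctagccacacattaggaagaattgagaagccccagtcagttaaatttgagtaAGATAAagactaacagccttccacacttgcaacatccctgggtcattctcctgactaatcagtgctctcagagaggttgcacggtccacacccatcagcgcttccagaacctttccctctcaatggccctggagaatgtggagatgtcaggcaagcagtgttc
Dab2 intron: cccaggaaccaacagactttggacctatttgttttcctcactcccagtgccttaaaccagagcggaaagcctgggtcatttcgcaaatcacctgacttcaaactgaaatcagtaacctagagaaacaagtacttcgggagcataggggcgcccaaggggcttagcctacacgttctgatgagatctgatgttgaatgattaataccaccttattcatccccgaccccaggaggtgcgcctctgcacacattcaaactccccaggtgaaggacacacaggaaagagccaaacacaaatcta
Cubn intron: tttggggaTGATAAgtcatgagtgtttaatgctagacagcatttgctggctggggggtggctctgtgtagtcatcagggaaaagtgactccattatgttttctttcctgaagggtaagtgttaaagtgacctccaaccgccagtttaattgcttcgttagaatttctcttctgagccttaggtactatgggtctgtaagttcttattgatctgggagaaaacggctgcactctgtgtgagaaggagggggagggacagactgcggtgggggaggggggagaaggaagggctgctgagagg
Lrp2 intron: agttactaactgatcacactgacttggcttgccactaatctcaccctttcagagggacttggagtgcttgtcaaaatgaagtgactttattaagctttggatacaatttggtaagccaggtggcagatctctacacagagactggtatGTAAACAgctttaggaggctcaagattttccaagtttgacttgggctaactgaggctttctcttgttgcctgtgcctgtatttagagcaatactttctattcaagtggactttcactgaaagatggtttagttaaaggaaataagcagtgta
Amn upstream: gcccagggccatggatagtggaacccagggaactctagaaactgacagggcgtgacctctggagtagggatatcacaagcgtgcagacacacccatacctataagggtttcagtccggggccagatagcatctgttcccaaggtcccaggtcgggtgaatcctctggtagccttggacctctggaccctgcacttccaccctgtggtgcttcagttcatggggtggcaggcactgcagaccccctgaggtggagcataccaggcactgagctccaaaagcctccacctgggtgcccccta

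The Dab2 downstream summit held AGATAA once and ACAATG, on the opposite strand, at 2 positions. The Cubn summit held TGATAA once, and the Lrp2 summit TGTTTAC once on the opposite strand. The Dab2 intronic and Amn upstream summits held none of the motifs. Among 62309 H3K27ac regions away from annotated starts, 15.3% held AGATAA, 12.3% TGATAA, 16.5% ACAATG and 4.50% TGTTTAC in the 300 bases at the summit. The H3K27ac regions at the Dab2 downstream and Amn upstream summits reach annotated starts, of the neighboring gene C9 and of Amn. They lie outside this pool, so these shares give no matched background for the Dab2 downstream summit. The matches are descriptions of the letters in these windows.

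The promoters of Lrp2, Amn and Cubn and the internal promoter of Dab2 are given because H3K27me3 or H3K27ac was listed over them. The stretches run upstream from the start to at most 250 bases and stop before any annotated exon (Lrp2 chr2:69586066-69586279, − strand, Amn chr12:111270846-111271094, + strand, Cubn chr2:13491877-13492126, − strand, Dab2 internal chr15:6386498-6386597, + strand).
Lrp2 promoter: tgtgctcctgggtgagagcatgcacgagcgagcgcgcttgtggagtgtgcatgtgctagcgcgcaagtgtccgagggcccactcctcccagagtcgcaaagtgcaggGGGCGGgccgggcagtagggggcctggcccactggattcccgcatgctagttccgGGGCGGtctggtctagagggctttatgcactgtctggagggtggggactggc
Amn promoter: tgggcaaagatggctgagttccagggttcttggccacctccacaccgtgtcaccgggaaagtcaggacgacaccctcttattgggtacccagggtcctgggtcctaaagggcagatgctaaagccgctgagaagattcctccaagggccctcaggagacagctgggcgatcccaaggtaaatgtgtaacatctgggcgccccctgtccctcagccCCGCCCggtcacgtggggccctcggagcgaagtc
Cubn promoter: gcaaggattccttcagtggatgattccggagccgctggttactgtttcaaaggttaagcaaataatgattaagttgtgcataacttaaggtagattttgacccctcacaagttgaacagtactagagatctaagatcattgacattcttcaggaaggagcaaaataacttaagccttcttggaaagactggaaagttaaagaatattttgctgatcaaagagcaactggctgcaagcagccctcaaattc
Dab2 internal promoter: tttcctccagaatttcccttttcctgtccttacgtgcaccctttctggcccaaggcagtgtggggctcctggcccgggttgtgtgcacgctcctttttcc

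The Lrp2 and Amn promoters were rich in CpG, with 18 and 11 CpG in the 250 bases before the RefSeq start and G or C at 66.4 and 61.2% of positions. GGGCGG occurred at 2 positions in the Lrp2 promoter and, on the opposite strand, at 1 in the Amn promoter, and 32.7% of 32817 promoters held it. The Cubn promoter had 2 CpG and 39.6% G or C, with no match to any of the motifs, against medians of 6 CpG and 52.4% over all promoters. Dab2 has 2 RefSeq promoters. The distal one, at the annotated gene start, had 2 CpG, and the internal one about 87 kb downstream had 17. In 250 bases, TGATAA was found in the distal and GTTAAT in the internal promoter, the latter in annotated exon beyond the stretch shown, and 7.95 and 6.44% of promoters held these motifs.

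Coverage of the whole windows was compared first. No member passed the adjusted threshold of 0.05 in any mark (exact test that permutes the 9 libraries among the populations, on the F statistic, with Benjamini-Hochberg adjustment over all genes tested), and neither did any gene of the 13264, 18656, 9799 and 13179 tested for H3K4me1, H3K27ac, H3K27me3 and H3K9me3 (0% called in each mark). At an unadjusted p under 0.05, 6.26, 8.69, 7.27 and 12.5% of genes were called. The smallest p that 9 libraries allow is 0.00357, so the adjusted threshold could be passed only by at least 948 H3K4me1 windows together. That number holds if all have the smallest p, and more are needed at larger p. The smallest p was reached by 18. The plot of covered percent shows the 4 windows in every library.

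**Figure D1:**
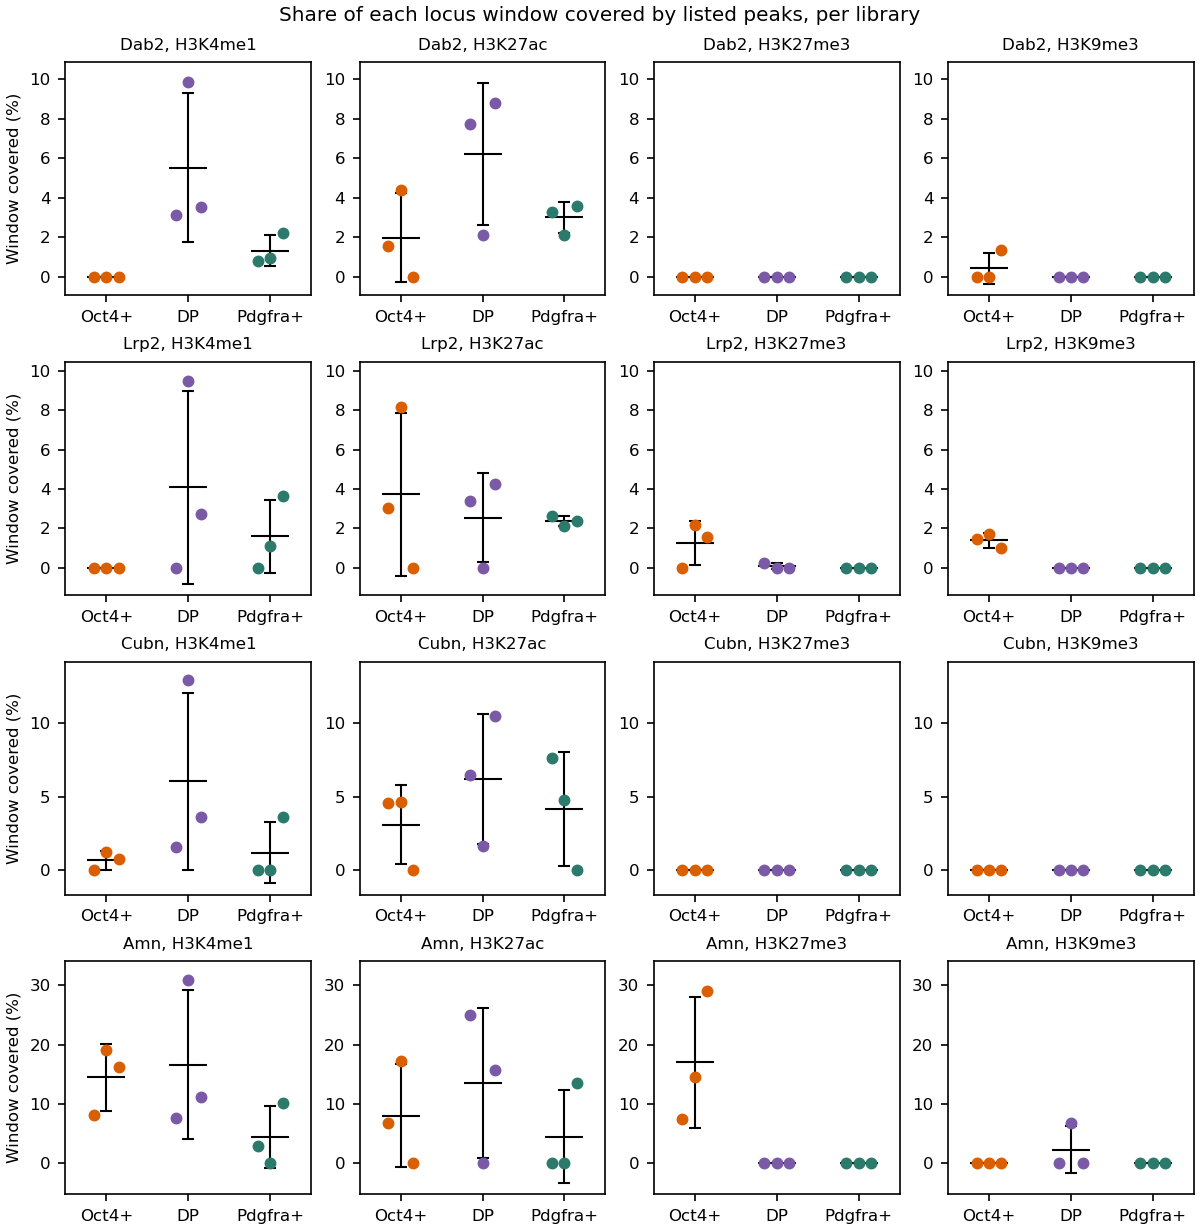
Percent of each window (gene body and 20 kb on either side) covered by listed peaks, by gene (rows) and mark (columns), with 1 point per library, a horizontal line at the mean and bars of 1 SD over 3 libraries per population. Dab2 H3K4me1 is at 0 in all Oct4+ libraries and above 0 in all others, and H3K27me3 at Amn is above 0 in Oct4+ libraries alone.

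The Dab2 window (gene at chr15:6299788-6440712, + strand) carried the enhancer mark H3K4me1 in DP and Pdgfra+ cells and none that was listed in Oct4+ cells. H3K4me1 peaks covered 3.16, 9.87 and 3.55% of the window in DP replicates 1 to 3 and 0.822, 0.956 and 2.23% in Pdgfra+ replicates, against 0% in all 3 Oct4+ libraries. The populations did not overlap. Means were 5.53 ± 3.77% in DP, 1.33 ± 0.775% in Pdgfra+ and 0% in Oct4+ (SD, n = 3 each, exact permutation p = 0.00357, adjusted p = 0.64). A window listed in 6 of 6 DP and Pdgfra+ and 0 of 3 Oct4+ libraries was found for 0.430% of genes tested, and 0.136% reached the smallest p. Each pair of populations gave an exact two-sided p of 0.10, the smallest that 3 against 3 libraries allow. All DP libraries lay above all Oct4+ libraries, as for 6.39% of genes, all Pdgfra+ above all Oct4+, as for 0.671%, and all DP above all Pdgfra+, as for 5.87%. In sorted populations, a smaller share of cells that carry a mark and less of the mark per cell cannot be told apart.

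This coverage centered on 1 place downstream of the gene. H3K4me1 peaks merged into a region from 137.7 to 148.3 kb after the annotated Dab2 start (chr15:6437472-6448051), and H3K27ac peaks into one from 140.7 to 150.1 kb (chr15:6440507-6449843). Both were listed in 6 of 6 DP and Pdgfra+ and in 0 of 3 Oct4+ libraries, which held for 0.532% of merged H3K4me1 regions and 0.109% of merged H3K27ac regions. Of 86 such H3K27ac regions, 7 overlapped one of the 141 such H3K4me1 regions (8.14% of the former, 4.96% of the latter), and the Dab2 region was one of them.

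The highest signal within the 12 peaks of this place lay between 144.6 and 145.8 kb, so it was shared between marks and libraries. The total signal of the H3K27ac peak was 61581, 20143 and 49247 in DP replicates 1 to 3 and 44939, 18523 and 57718 in Pdgfra+ replicates. The Oct4+ lists, which had no peak there, held H3K27ac peaks down to a total signal of 5460 to 6021, though signal was not scaled to depth. H3K4me1 total signal was 18505, 68707 and 25358 in DP and 8541, 5683 and 33814 in Pdgfra+. The H3K4me1 peak was among the top 2.72, 4.49 and 4.67% of its list in DP, and among the top 10.2, 33.1 and 3.06% in Pdgfra+ replicates 1 to 3.

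Both regions remained listed in 6 of 6 DP and Pdgfra+ libraries when every list was held to the same number of peaks. That number was 1074 for H3K4me1 and 3079 for H3K27ac. They also remained when the 50% of peaks with the highest total signal were kept (alternatives chosen after seeing the data). Such shortened lists can gain no peak, so the 0 of 3 in Oct4+ could not change. With Oct4+ replicate 3 left out, the share of merged H3K27ac regions listed in 6 of 6 and 0 of 2 libraries was also 0.109%. The region begins near the 3′ end of Dab2 and overlaps the annotated start of C9, at 145.5 kb, which encodes the terminal complement component C9. Peaks of Dab2 and of the C9 promoter cannot be told apart here. Without 1 kb on either side of the starts of other genes, H3K4me1 coverage of the Dab2 window still differed by 4.02 percentage points between DP and Oct4+ and by 0.547 between Pdgfra+ and Oct4+ (exact permutation p = 0.00357, adjusted p = 0.612). In the gene body alone these differences were 3.37 and 0.

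**Figure D2:**
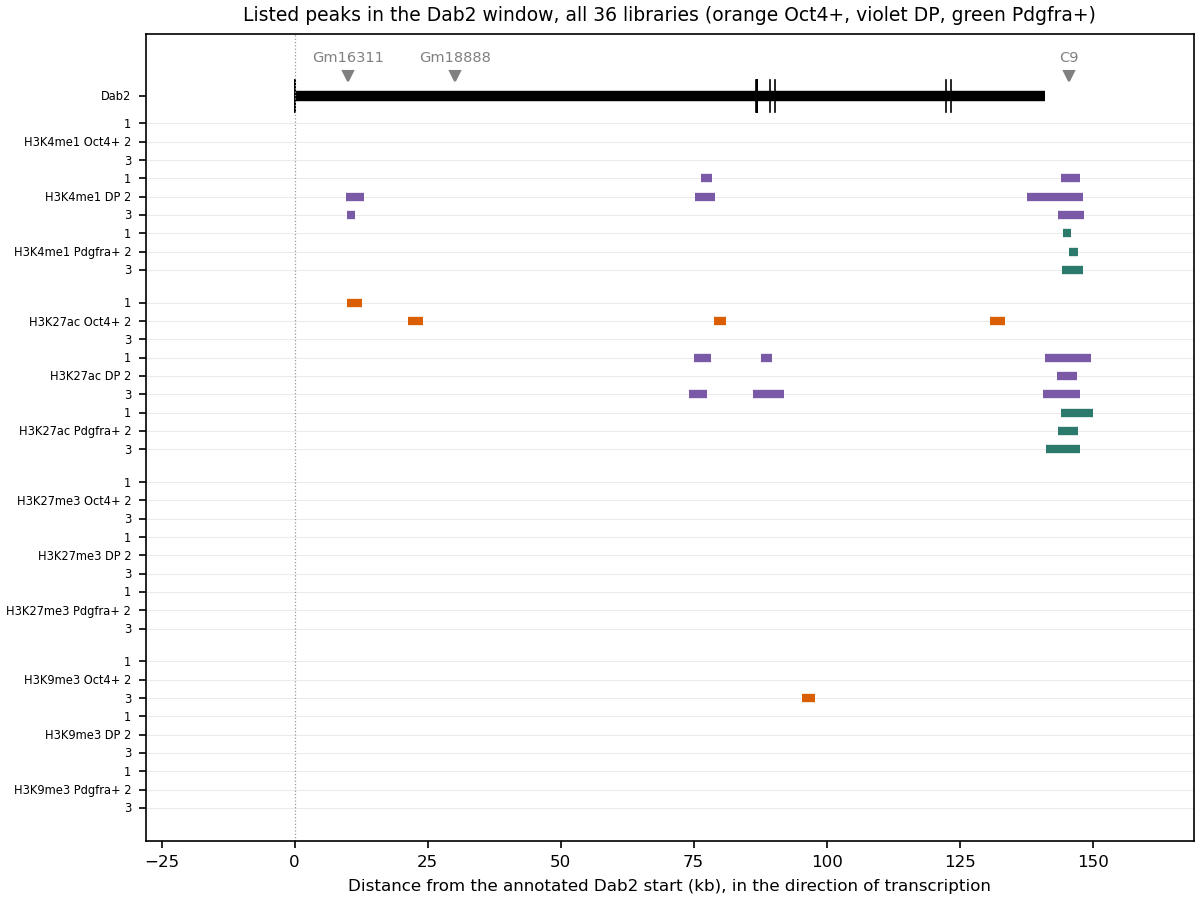
Listed peaks in the Dab2 window for each library (rows, numbered by replicate within each mark and population), against distance in kb from the annotated start, with annotated starts of Dab2 as ticks on the gene bar and starts of other genes as triangles. The H3K4me1 and H3K27ac peaks near 145 kb appear in DP and Pdgfra+ rows and in no Oct4+ row.

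Inside the gene, further peaks were listed in DP. H3K27ac from 74.2 to 78.3 kb (chr15:6373968-6378052) was listed in DP replicates 1 and 3, each with its maximum at 75.6 kb, and H3K4me1 from 75.3 to 79.1 kb in DP replicates 1 and 2. By the classes of the study this was an active enhancer region in DP, H3K4me1 with H3K27ac. H3K4me1 without H3K27ac in at least 2 libraries, a primed state, was found from 9.6 to 13.1 kb in DP. This region overlaps the annotated start of the antisense gene Gm16311, at 10.1 kb, which was not counted as a promoter. The internal Dab2 promoter was covered by H3K27ac in DP replicates 1 and 3 (86.2 to 91.9 kb) and in no Oct4+ or Pdgfra+ library, and the distal start in no library of any mark. Dab2 has 13 annotated starts. Over all genes, H3K27ac was listed at any annotated start for 12.1 to 38.2% in DP, 19.8 to 52.9% in Oct4+ and 18 to 25.2% in Pdgfra+ libraries. The share of genes with the combination seen at Dab2 was not counted.

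H3K27ac coverage of the whole Dab2 window overlapped between populations, at 1.58, 4.41 and 0% in Oct4+, 7.75, 2.10 and 8.81% in DP and 3.31, 2.12 and 3.61% in Pdgfra+ libraries (exact permutation p = 0.168, adjusted p = 0.542). The Oct4+ peaks were elsewhere, with maxima at 11.2 kb in replicate 1 and at 22.8, 79.8 and 131.8 kb in replicate 2. By total signal they ranked 32418 of 38619 in replicate 1 and 28929, 63151 and 57101 of 65131 in replicate 2. Per 1000000 units of listed signal, the window held 15.7, 30.5 and 0 units in Oct4+, 328, 314 and 271 in DP and 213, 174 and 257 in Pdgfra+ libraries. On this scale the endodermal libraries did not overlap Oct4+, as for 10.3% of genes tested. The test was run on log2 of the units plus 1 (exact permutation p = 0.00357, adjusted p = 0.225). H3K27me3 was listed in no library at Dab2, as at 55.2% of all genes, and H3K9me3 in Oct4+ replicate 3 alone (1.36% of the window).

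The Lrp2 start (gene at chr2:69424340-69586065, − strand) was listed under H3K27me3 in 2 of 3 Oct4+ libraries and in no DP or Pdgfra+ library, while H3K27ac over the start was listed in 1 Oct4+, 2 DP and 1 Pdgfra+ libraries. H3K27me3 peaks covered the start in Oct4+ replicates 2 and 3, with maxima within 0.1 kb of it, and in 0 of 6 DP and Pdgfra+ libraries. A peak over the gene start in at least 2 of 3 Oct4+ and in 0 of the other 6 libraries was found for 0.649% of genes. The total signal of these peaks was 21899 and 41474, and the lowest total signal of any H3K27me3 peak listed in DP was 52608, 16476 and 13383 in replicates 1 to 3. In Pdgfra+ replicates 1 to 3 this lowest signal was 4589, 7977 and 25863. H3K27ac was listed from 2.5 kb before to 5.9 kb after the start (a merged region) in DP replicates 1 and 3, Pdgfra+ replicates 1 and 3 and Oct4+ replicate 2. Its maxima lay at the start in the DP and Oct4+ libraries, within 0.2 kb, and at 3.0 to 3.1 kb in Pdgfra+, where the peak of replicate 3 began 1.1 kb after the start.

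At that second position H3K4me1 had its maximum too, at 3.2 kb in DP replicates 2 and 3, and the H3K4me1 region from 2.5 to 6.2 kb was an active region in DP. H3K27me3 coverage of the whole window was 0, 2.16 and 1.58% in Oct4+ and 0.255% in DP replicate 1, whose peak lay beyond the 3′ end of the gene (exact permutation p = 0.25, adjusted p = 0.653).

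H3K9me3 was listed 3.0 to 7.6 kb upstream of Lrp2 in all 3 Oct4+ libraries and in none of the other 6. It covered 1.45, 1.72 and 0.999% of the window, against 0% in DP and Pdgfra+ (exact permutation p = 0.0357, adjusted p = 0.312). Of all genes tested, 3.76% had H3K9me3 in their windows in 3 of 3 Oct4+ and 0 of 6 other libraries, and of merged H3K9me3 regions 4.43%. The peaks were not among the strongest, at the top 36.1, 41.9 and 64.8% of their lists, and none was left with equal numbers of peaks. At the same place Oct4+ replicate 1 also had H3K27ac listed, from 9.0 to 5.5 kb upstream with its maximum at 5.8 kb.

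H3K4me1 in the Lrp2 window was listed in no Oct4+ library. It covered 0, 9.52 and 2.75% of the window in DP and 0, 1.12 and 3.66% in Pdgfra+ replicates (exact permutation p = 0.357, adjusted p = 0.852), so that each population held a library at 0. Upstream H3K4me1 between 15.9 and 25.0 kb before the start, a merged region that runs past the edge of the window, was listed in 2 DP and 2 Pdgfra+ libraries without consensus H3K27ac, a primed region in both. The peak of 1 of the DP libraries lay wholly beyond the edge. Within the gene, H3K4me1 from 49.2 to 56.2 kb was listed in 2 DP and 1 Pdgfra+ libraries. The intronic region around 139 kb, whose sequence is given above (merged region chr2:69445146-69449497), carried H3K27ac in DP replicate 3 and Pdgfra+ replicate 2 and H3K4me1 in DP replicate 2, with all 3 maxima between 138.6 and 139.2 kb.

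H3K27ac coverage of Lrp2 was 3.03, 8.18 and 0% in Oct4+, 3.39, 0 and 4.28% in DP and 2.63, 2.10 and 2.38% in Pdgfra+ libraries (exact permutation p = 0.857, adjusted p = 1). The direction of the Pdgfra+ minus Oct4+ difference, −1.37 percentage points, turned to 0.876 with equal numbers of peaks. Per 1000000 units of listed signal, Lrp2 held 43.0, 76.5 and 0 in Oct4+, 154, 0 and 123 in DP and 159, 116 and 146 in Pdgfra+ libraries, and DP overlapped Oct4+. The test was again run on log2 of the units plus 1 (exact permutation p = 0.314, adjusted p = 0.592).

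**Figure D3:**
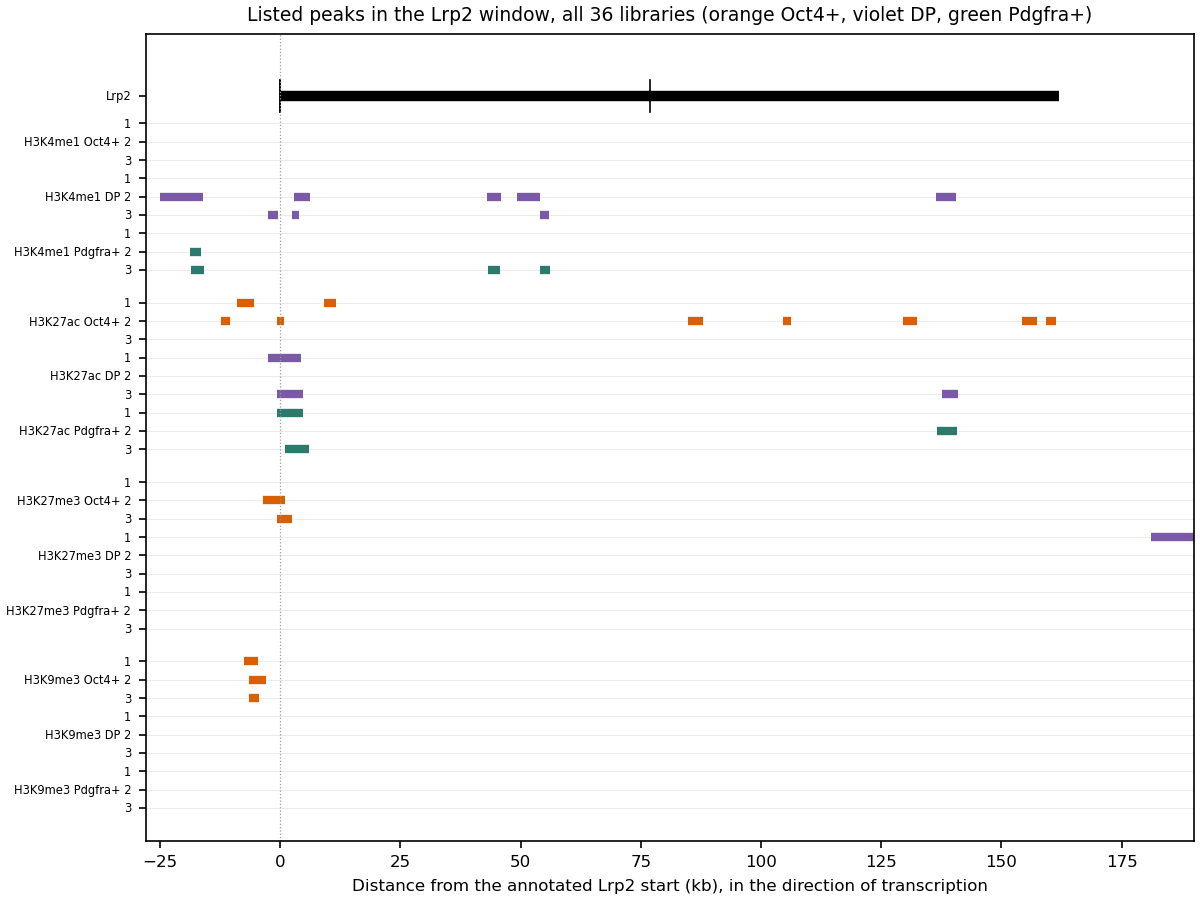
Listed peaks in the Lrp2 window for each library (rows as in the Dab2 map), against distance in kb from the annotated start in the direction of transcription. H3K27me3 over the start is seen in Oct4+ replicates 2 and 3, and H3K9me3 just upstream in the 3 Oct4+ rows.

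Cubn (gene at chr2:13276338-13491813, − strand) carried intronic H3K27ac about 119 kb into the gene in DP and Pdgfra+ cells and not in Oct4+ cells. The merged region from 117.6 to 122.2 kb (chr2:13369634-13374261) was listed in DP replicates 1 to 3 and in Pdgfra+ replicates 1 and 2. A merged H3K27ac region in at least 5 of 6 DP and Pdgfra+ and in 0 of 3 Oct4+ libraries was found for 0.223% of such regions. Total signal was 17601, 17293 and 34233 in DP and 32501, 11757 and 0 in Pdgfra+ replicates 1 to 3. These peaks stood at the top 28.8 to 74.0% of their lists, and with equal numbers of peaks DP replicate 2 alone kept one.

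H3K4me1 at the same intronic place was listed in Oct4+ replicates 2 and 3 and in Pdgfra+ replicate 3, and in no DP library. With no H3K27ac there in Oct4+, it was a primed region in that population. The maxima of H3K4me1 lay at 121.0 and 121.1 kb in Oct4+ and at 119.7 kb in Pdgfra+, and those of H3K27ac between 119.1 and 120.0 kb.

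Around the Cubn start, peaks were listed in DP and Pdgfra+ libraries. H3K27ac from 1.9 kb before to 7.2 kb after the start was listed in DP replicates 1 and 3 and Pdgfra+ replicate 2, and covered the start itself in these 3 libraries and in no Oct4+ library. H3K27ac in at least 3 of 6 DP and Pdgfra+ and in 0 of 3 Oct4+ libraries at the gene start was found for 1.05% of genes. H3K4me1 peaks of all 3 DP libraries and of Pdgfra+ replicate 3 merged into a region from 20.6 kb before to 1.4 kb after the start. In DP replicate 2 alone a peak spanned this region and covered the start. The other libraries held separate upstream peaks. These lay from 19.2 to 17.3 and from 6.2 to 4.1 kb before the start in DP replicate 1, and from 9.8 to 7.4 kb in Pdgfra+ replicate 3. Those of DP replicate 3 lay between 19.2 and 3.3 kb before it. The merged region overlapped H3K27ac in DP. Through DP replicate 2 it reaches the annotated start and so lies outside the study's enhancer classes. Each DP replicate had a maximum at 17.9 to 18.1 kb before the start. Further maxima lay at 4.4 kb before it in DP replicate 1 and at 4.5 and 8.7 kb in DP replicate 3.

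Whole-window H3K4me1 coverage of Cubn was 0, 1.26 and 0.763% in Oct4+, 1.57, 12.9 and 3.63% in DP and 0, 0 and 3.60% in Pdgfra+ libraries. Every DP library was above every Oct4+ library (6.39% of genes tested), and Pdgfra+ overlapped both (exact permutation p = 0.104, adjusted p = 0.747). For H3K27ac, coverage was 4.60, 4.67 and 0% in Oct4+, 6.46, 1.67 and 10.5% in DP and 7.66, 4.76 and 0% in Pdgfra+ libraries (exact permutation p = 0.564, adjusted p = 0.863). Part of this coverage lay at the start of the neighboring gene Rsu1. Maxima at 220.2 to 220.6 kb were listed in Oct4+ replicates 1 and 2, DP replicate 3 and Pdgfra+ replicate 2. No H3K27me3 or H3K9me3 peak was listed in the Cubn window in any library, as at 55.2 and 39.8% of all genes.

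**Figure D4:**
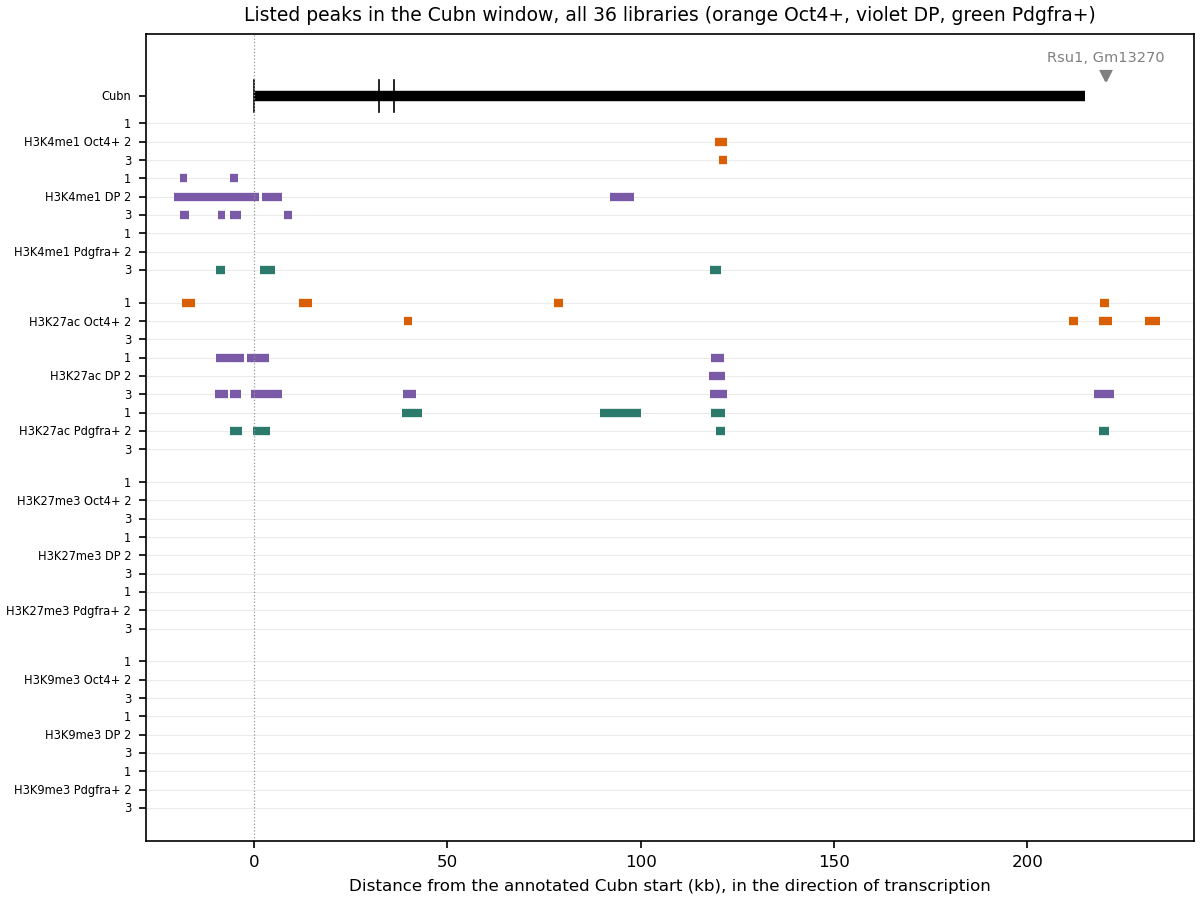
Listed peaks in the Cubn window for each library (rows as in the Dab2 map), against distance in kb from the annotated start in the direction of transcription. Intronic H3K27ac near 119 kb appears in 3 DP and 2 Pdgfra+ rows, and the rows of H3K27me3 and H3K9me3 are empty.

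Amn (gene at chr12:111271095-111276426, + strand) was the shortest of the loci, with a gene of 5.33 kb, and the one with H3K27me3 in all Oct4+ libraries. H3K27me3 covered 7.52, 14.5 and 29.1% of the window in Oct4+ replicates 1 to 3 and 0% in all DP and Pdgfra+ libraries, with a mean of 17.0 ± 11.0% in Oct4+ (SD, n = 3, exact permutation p = 0.0357, adjusted p = 0.559). The Oct4+ values did not overlap the others. A window with H3K27me3 in 3 of 3 Oct4+ and 0 of 6 other libraries was found for 0.531% of genes tested, and a merged region of this kind for 0.571% of regions. The merged region ran from 2.0 kb before to 11.2 kb after the start (chr12:111269098-111282285), its maxima lay at 4.3 to 5.1 kb, near the 3′ end of the gene, and it covered the start in replicates 2 and 3.

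Oct4+ lists of H3K27me3 held 1629 to 5785 peaks, DP lists 3798 to 8672 and Pdgfra+ lists 1143 to 6151, and the part of list length in the difference was not tested. The Amn region was listed in 3 of 3 Oct4+ libraries with equal numbers of peaks as well, an alternative chosen after seeing the data. Shortened lists can gain no peak, so the 0 of 6 in the other libraries could not change. The total signal of the peak was 14255, 40852 and 158003 in Oct4+ replicates 1 to 3. The lowest listed total signal in DP replicate 1, 52608, was above the first and the second of these. Those of DP replicate 2 (16476) and Pdgfra+ replicate 3 (25863) were above the first. Those of DP replicate 3 (13383) and of Pdgfra+ replicates 1 and 2 (4589 and 7977) were below all 3.

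H3K4me1 at Amn was listed in 8 of 9 libraries. It covered 8.14, 19.1 and 16.3% of the window in Oct4+, 7.73, 31.0 and 11.2% in DP and 3.02, 0 and 10.2% in Pdgfra+ libraries, and the populations overlapped (exact permutation p = 0.271, adjusted p = 0.777). In all 8 libraries a peak had its maximum 2.9 to 3.3 kb upstream of the start. All 3 Oct4+ libraries had a further H3K4me1 peak between 2.5 and 5.8 kb inside the gene.

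H3K27ac at the upstream position was listed in endodermal libraries. DP replicates 1 and 3 and Pdgfra+ replicate 3 had H3K27ac maxima at 2.9 to 3.1 kb before the start, and the 2 Oct4+ libraries with upstream H3K27ac had theirs at 5.7 and 6.4 kb before it, in peaks that ended 4.8 and 5.0 kb before the start. Total signal was 92175, 32155 and 59122 in those DP and Pdgfra+ peaks, which stood at the top 1.12, 32.4 and 16% of their lists. H3K27ac coverage of the whole window, 6.87, 17.2 and 0% in Oct4+, 25.1, 0 and 15.7% in DP and 0, 0 and 13.6% in Pdgfra+, overlapped between populations (exact permutation p = 0.55, adjusted p = 0.848).

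By consensus of at least 2 of 3 libraries, the H3K4me1 regions of Amn overlapped H3K27me3 and not H3K27ac in Oct4+ (a bivalent state), H3K27ac and not H3K27me3 in DP (active), and neither in Pdgfra+ (primed, from 6.8 to 2.1 kb upstream). Oct4+ replicate 2 also had a H3K27ac peak from 3.4 to 5.5 kb after the start, which was short of the consensus. The upstream H3K4me1 maxima in Oct4+, 2.9 to 3.1 kb before the start, lay outside every Oct4+ H3K27me3 peak. In Oct4+ replicate 1 the upstream H3K4me1 peak did not meet H3K27me3, so upstream the bivalent state rests on the edges of merged peaks. The Oct4+ and DP regions reach annotated starts, which the study's enhancer classes leave out. Over all H3K4me1 consensus regions away from starts, the bivalent share was 1.64% in Oct4+, 4.83% in DP and 0.687% in Pdgfra+. These shares leave out regions at starts and so give no background for the Oct4+ and DP regions of Amn. Over all genes, H3K27me3 was listed at 4.94 to 16.1% of gene starts in Oct4+ libraries. H3K9me3 was listed once in the Amn window, in DP replicate 2 (6.87% of the window).

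**Figure D5:**
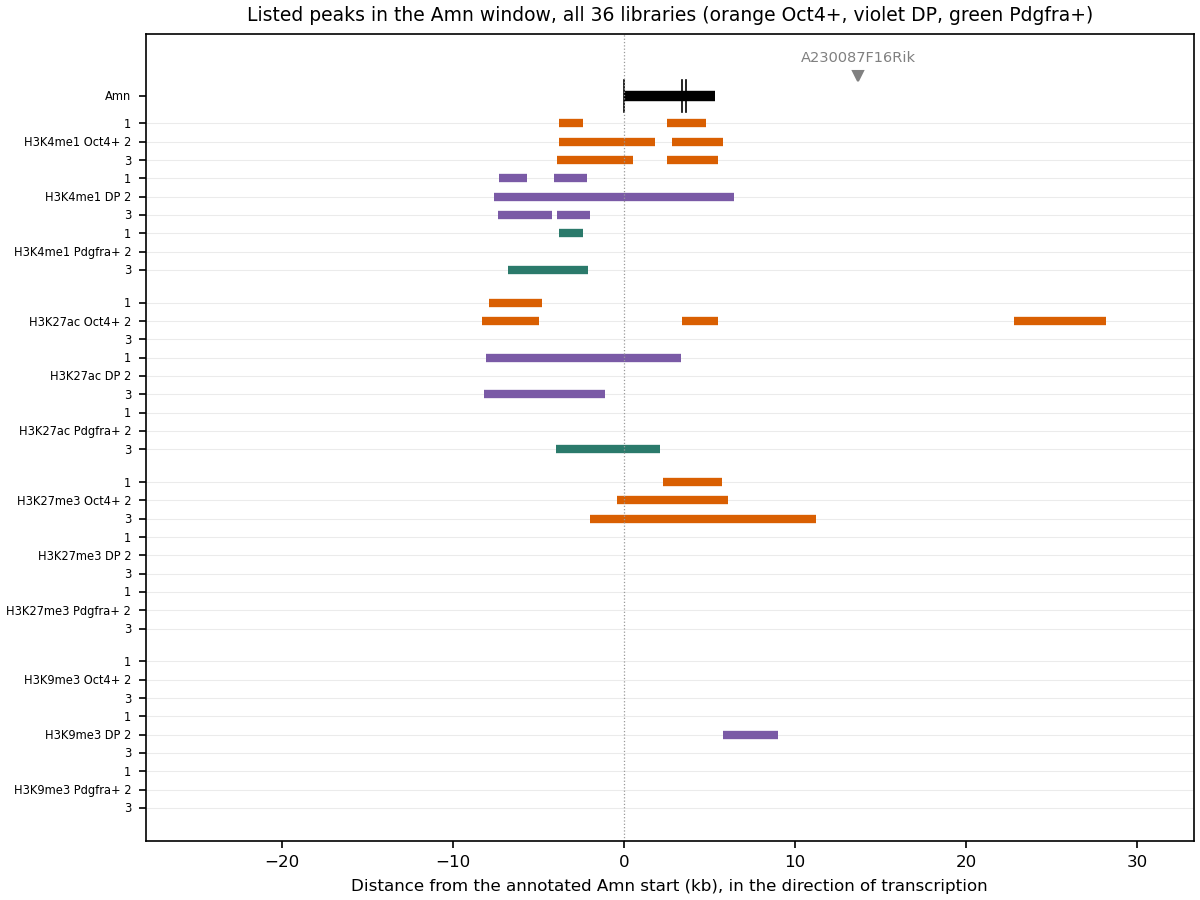
Listed peaks in the Amn window for each library (rows as in the Dab2 map), against distance in kb from the annotated start in the direction of transcription. H3K27me3 is drawn over the gene in the 3 Oct4+ rows alone, and H3K4me1 about 3 kb upstream in 8 of 9 rows.

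The 4 loci did not share 1 pattern over the libraries. Between members, the mean of the Spearman correlations over the 9 H3K4me1 and the 9 H3K27ac libraries was highest for Dab2 and Lrp2 (0.76) and Dab2 and Cubn (0.70), and lowest for Dab2 and Amn (0.44, with 0.10 for H3K4me1). For Dab2, 398 of the other genes were at least as similar to it as Lrp2 was. The most similar genes were Bend5 (0.97), Wnt11 (0.95) and Pla2g6 (0.94) for Dab2, Gm49396, Igflr1 and Lyrm4 (0.95 each) for Lrp2, Dusp10 (0.94), Pfkl and Ptpn21 (0.93 each) for Cubn, and Msh4, Rabggtb (0.97 each) and Stac2 (0.96) for Amn. Libraries share their peak number across genes, and these values are descriptions.

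The wider endocytic pathway was counted from a list of 73 genes, of which 72 were matched. In H3K27ac, 72 were tested and 0 passed the adjusted threshold, with 8 at an unadjusted p under 0.05 by the exact permutation test (8.69% of all genes). One gene, Ctsl, a lysosomal protease, had every DP and Pdgfra+ library above every Oct4+ library, as 0.370% of all genes did, with 3.42 ± 5.93, 24.2 ± 10.6 and 14.0 ± 3.79% of its window covered in Oct4+, DP and Pdgfra+ (SD, n = 3). Every Oct4+ library was higher than every other library for 7 genes, as for 7.70% of all genes. Among them were the receptors Lrp1 (16.3 ± 13.3, 1.33 ± 1.20 and 1.47 ± 1.54%), Sorl1 (7.48 ± 7.22, 0 and 0%) and Lrp1b, the adaptors Dab1 (2.81 ± 2.86, 0 and 0%), Epn2 (27.8 ± 14.0, 6.60 ± 5.89 and 2.38 ± 4.13%) and Eps15l1, and the lysosomal chloride transporter Clcn7. The median Pdgfra+ minus Oct4+ difference over the list was −5.89 percentage points, beside −4.56 over all genes tested.

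In H3K4me1, 64 genes of the list were tested and 2 had an unadjusted p under 0.05, Lrp1 (14.7 ± 7.85, 2.46 ± 2.72 and 0%) and the engulfment adaptor Gulp1 (0.873 ± 0.184, 0 and 0%), both with every Oct4+ library higher, as for 3.80% of all genes. The median difference was −0.638 percentage points, beside −1.26 over all genes. In H3K27me3, 40 were tested and 6 had an unadjusted p under 0.05, beside 7.27% of all genes, among them the transferrin receptor Tfrc (0, 37.8 ± 13.7 and 3.84 ± 6.66%), Clcn7 (0, 27.5 ± 4.35 and 6.21 ± 10.7%) and Rab5c (0, 12.8 ± 3.57 and 2.55 ± 4.42%), each at 0 in Oct4+ and highest in DP. All DP libraries lay above all Oct4+ libraries for 20.9% of genes tested. The clathrin adaptor subunit Ap2s1 was higher in every DP and Pdgfra+ library than in every Oct4+ library, as were 0.694% of genes, and the coat protein Eps15 lower, as were 0.592%. In H3K9me3, 46 were tested and 8 had an unadjusted p under 0.05, where amphiphysin (Amph) reached the smallest exact p of 0.00357 (0.683% of genes did; adjusted p = 0.312), at 4.33 ± 0.403, 2.47 ± 0.196 and 0.294 ± 0.509%, and Gipc1, an adaptor that binds megalin, had 3.89 ± 0.726, 13.6 ± 2.07 and 18.2 ± 6.07%. Every DP and Pdgfra+ library was higher than every Oct4+ library for Gipc1 and Lrp1, as for 3.89% of all genes, and lower for Amph and the lysosomal membrane protein Lamp1, as for 7.67%. The median difference over the list was 0 percentage points, beside −0.0801 over all genes, and for H3K27me3 0.104 beside 0.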

How the data were processed

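CUT&Tag libraries of 3 sorted nEnd populations were analysed, in 36 peak lists. The 3 IgG samples were not used here. Per the labels and methods, the authors aligned reads to mm10 with Bowtie2, made fragment coverage with SAMtools 1.12 and bedtools 2.26.0, and called peaks in each library with SEACR (stringent) against IgG. The deposited lists give for each peak its total and highest signal, which is not scaled to depth. Whether a peak is listed depends on the depth of its library and of the IgG control, so lists can differ in length for reasons other than the mark.

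Windows of 21884 protein-coding genes (GENCODE, GRCm38) were intersected with each list, and covered percent was tested across all genes as described. Software was SciPy 1.17.1, pandas 2.3.3 and NumPy 2.4.6 under Python 3.11.15. A gene with no listed peak in a mark was not tested. The smallest overlap counted was 1 base. Consensus regions were listed in at least 2 of 3 libraries, and promoters were annotated starts of protein-coding genes ± 1 kb. Pathway genes named were those of smallest exact p, at most 8 per mark, and each locus gave its non-promoter H3K27ac region listed in the most libraries. The scripts were tested on simulated data. The members, lists and tests were chosen with earlier results of these data known. Replicate numbers were not used as pairs. Alternatives were other peak sets, windows and measures, a replicate block and each library left out. Sequences came from RefSeq promoters (4 of 4 genes matched, 5 promoters) and the GRCm38.p6 genome, read with pysam 0.24.0, and protein sequences were not analysed here.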

Additional observations from a re-analysis of the deposited data

How the results depend on the processing

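In all 4 marks, no gene passed the adjusted threshold under any alternative, and the lowest adjusted p of a member was 0.148 (exact permutation test), so the alternatives bear on directions. Values are Pdgfra+ minus Oct4+ covered percent unless said otherwise. Of these differences, 16 reversed and 10 came to 0. For H3K4me1 at Cubn (0.526) the difference became −1.59 as log2 signal and −1.25 as percentile, and it ran from −0.673 to 1.13 over the libraries left out, negative without Pdgfra+ replicate 3. For H3K27ac at Lrp2 (−1.37) it became 0.876 with equal numbers of peaks, 3.22 as log2 signal and 32.3 as percentile, and ran from −3.23 to 0.855, positive without Oct4+ replicate 2. For H3K27ac at Amn (−3.52) it became 4.52 with equal numbers, 1.33 in the gene body alone and 0.41 as percentile, and ran from −8.04 to 1.08, positive without Oct4+ replicate 2. For H3K27ac at Cubn (1.05) it became −1.26 with the 50% strongest peaks and −0.0714 with 50 kb flanks, and ran from −0.711 without Pdgfra+ replicate 1 to 3.12, with −0.496 without Oct4+ replicate 3. For H3K27ac at Dab2 (1.01) it became −2.56 in the gene body alone and 3.01 with equal numbers, and ran from 0.0166 without Oct4+ replicate 3 to 2.22 without Oct4+ replicate 2. It was 0 for H3K4me1 at Cubn with equal numbers, at Lrp2 with the 50% strongest peaks and at Dab2 in the gene body alone, for H3K27me3 at Lrp2 with equal numbers or the 50% strongest peaks, for H3K9me3 at Lrp2 with equal numbers or the gene body alone, and for H3K9me3 at Dab2 with equal numbers or the 50% strongest peaks. The last ran from −0.681 to 0, which it was without Oct4+ replicate 3. The causes were not tested.

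Dab2 H3K4me1 kept its direction or came to 0 in every alternative, with exact permutation p between 0.00357 and 0.0536 and adjusted p between 0.248 and 0.881. With no Oct4+ peak listed in the window, only the 50 kb flanks and the percentile could have reversed it. Correlations between the deviations of same-numbered replicates ran from −0.31 to 0.38, and 6 of 36 were over 0.1, all in H3K4me1 and H3K27me3. For H3K4me1 replicate 1 they were 0.29 (Oct4+ and DP), 0.17 (Oct4+ and Pdgfra+) and 0.34 (DP and Pdgfra+). For replicate 2 they were 0.18, −0.16 and −0.31 in the same order. For H3K27me3 in Oct4+ and Pdgfra+ they were 0.38, 0.02 and 0.30 in replicates 1 to 3. With a replicate block, Dab2 H3K4me1 (1.33) had the smallest p the block allows (exact permutation p = 0.0278, adjusted p = 0.644). No gene passed the adjusted threshold with or without the block. Depth is unknown, so whether a mark not listed was absent cannot be told.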
